A study of Pinctada fucata with 3 samples.

Results

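The genes described here are the abundant mantle transcripts of the pearl oyster Pinctada fucata whose level lay at least 2-fold apart between oysters given dsRNA against IκB and oysters given dsRNA against Rel. A gene was included if its mean over these 2 libraries reached 1 FPKM (fragments per kilobase of transcript and 1000000 mapped fragments), if it reached 50 FPKM in either library, and if the log2 ratio of FPKM + 1 was 1 or more in size. This gave 353 genes of the 33072 listed, 165 of them higher with IκB dsRNA and 188 higher with Rel dsRNA. Both the level and the fold difference chose the genes, so the counts and sizes of these differences are descriptions. The GFP dsRNA library had no part in the choice.

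NF-κB proteins of the Rel family are transcription factors of immunity and development, found in molluscs as in other animals. IκB binds such proteins and retains them in the cytoplasm until a signal, for example from a Toll-like receptor, leads to its breakdown. Removing Rel takes away such a factor, whereas removing IκB is known to release it. The mantle is the organ that lines the shell and secretes the proteins of its prismatic and nacreous layers, and the series asks how NF-κB signalling bears on that mineral deposition.

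Adult oysters received 30 μg of dsRNA in the adductor muscle, directed against Pf-Rel, against poI-κB (the IκB of this oyster) or, as the control, against GFP, a jellyfish gene. Each group held 5 oysters, and mantle was sampled after 7 days. Every group is represented by 1 library, and the labels do not say whether the pieces of the 5 oysters were combined. All oysters, controls included, had thus received dsRNA.

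With 1 library per group, no value has a replicate error, no p-value can be given, and each difference is one between 2 libraries. In a whole tissue, fewer cells of a type and less RNA per cell cannot be told apart. The deposited identifiers are not paired with gene names, so the roles of the genes, the mantle markers and the Rel and IκB transcripts themselves were not analysed here, and whether each dsRNA lowered its target was not checked. The libraries were of similar depth, with that for Rel dsRNA 1.02 times as deep as that for IκB dsRNA by the spacing of their low values. The number of reads is unknown from FPKM. The FPKM sums were 1126540 (IκB dsRNA), 1006661 (Rel dsRNA) and 1166698 (GFP dsRNA).

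At 2-fold the abundant genes lay apart about as often as genes in general. Of the 20555 genes that passed the limit of 1 FPKM, 17.5% were at least 2-fold apart, 8.18% higher with IκB dsRNA and 9.35% higher with Rel dsRNA. Of the 1959 genes at 50 FPKM or more, the 353 make up 18.0%. The shares moved apart at larger folds. Adding 1 to each FPKM limits the fold that a gene of low level can reach. The median tested gene stood at 4.64 FPKM with IκB dsRNA and 4.87 FPKM with Rel dsRNA. At least 8-fold apart were 2.81% of the abundant and 1.26% of all tested genes, and 1.38% and 0.394% were at least 16-fold apart. The direction depended on the scale: with each library brought to a sum of 1000000, as in TPM, 113 abundant genes were higher with IκB dsRNA and 233 higher with Rel dsRNA, and with median-ratio scaling there were 176 of each. The median log2 ratio (IκB minus Rel) of all tested genes was -0.04 as deposited and -0.18 on the TPM scale.

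More of the larger differences were toward Rel dsRNA than toward IκB dsRNA. Among the 188 genes higher with Rel dsRNA the median size of the log2 ratio was 1.62, or 3.08-fold. Among the 165 genes higher with IκB dsRNA it was 1.31, or 2.48-fold. Genes at least 4-fold apart numbered 67 in favour of Rel dsRNA and 40 in favour of IκB dsRNA, and at 8-fold the counts were 40 and 15. At 16-fold they were 18 and 9. This lean was not seen over all tested genes at 4-fold, where 479 were higher with IκB dsRNA and 469 higher with Rel dsRNA, whereas at 16-fold they numbered 33 and 48. On the TPM scale the counts at 4-fold were 74 genes toward Rel and 30 toward IκB dsRNA. At 8-fold and 16-fold they were 42 and 12, and 20 and 7. That scale lowers the IκB dsRNA values against the Rel dsRNA values (factor 0.894). It thus moves ratios toward Rel dsRNA and is no check on this lean. Over all 1959 abundant genes the median log2 ratio was 0.08 as deposited, a slight shift the other way. On the TPM scale it was -0.11 over 1873 abundant genes, so its sign depended on the scale.

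**Figure D1:**
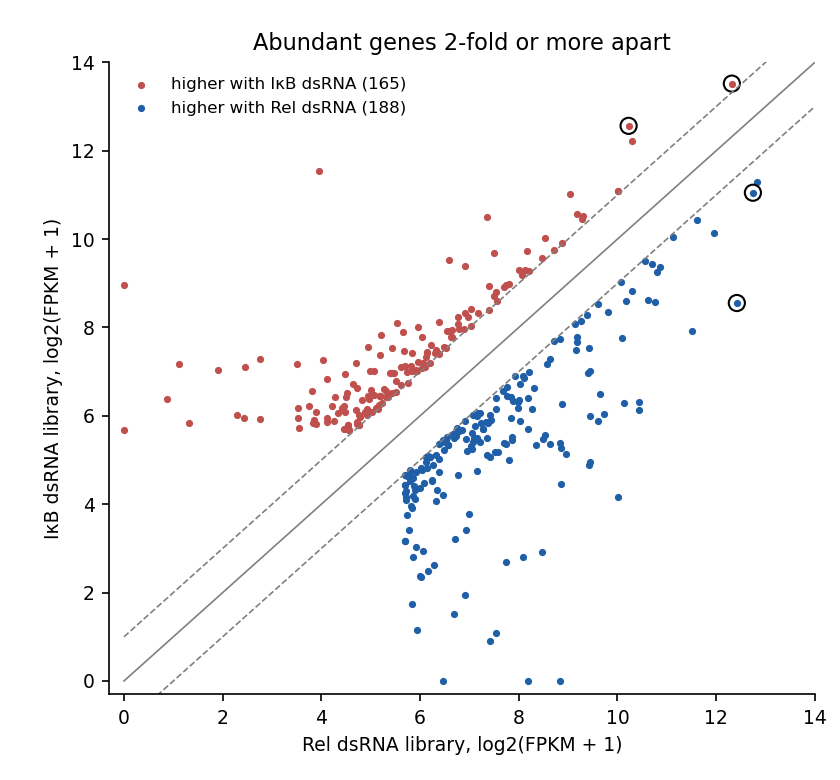
Level of each of the 353 genes in the Rel dsRNA library (horizontal) and the IκB dsRNA library (vertical), both as log2(FPKM + 1), with 1 library a side. Each point is a gene, the solid line marks equal levels, the dashed lines mark 2-fold, and the 4 circled genes are those named in the text. The gap between the dashed lines and the empty lower left corner follow from the choice of genes, and 5 points lie on an axis value of 0.

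The 2 largest FPKM gaps in favour of IκB dsRNA were found in genes with quite different control levels. BGI_novel_G005012 stood at 11747 FPKM with IκB dsRNA, 5108 FPKM with Rel dsRNA and 7213 FPKM in the GFP dsRNA library, a log2 ratio of 1.20 (2.30-fold). The control value therefore lay between the others, closer to that with Rel dsRNA. The second gene, pfu_aug2.0_2024.1_15361, stood at 6054 FPKM with IκB dsRNA, 1197 FPKM with Rel dsRNA and 136 FPKM in the GFP dsRNA library, a log2 ratio of 2.34 (5.05-fold). Here both knockdown libraries were far above the control, and the IκB dsRNA library was furthest from it.

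In the other direction the 2 largest gaps belonged to genes with consecutive identifiers. BGI_novel_G010324 stood at 374.8 FPKM with IκB dsRNA, 5479 FPKM with Rel dsRNA and 48.6 FPKM in the GFP dsRNA library, a log2 ratio of -3.87 (14.6-fold lower with IκB dsRNA). BGI_novel_G010325 stood at 2119 FPKM with IκB dsRNA, 6866 FPKM with Rel dsRNA and 145 FPKM in the GFP dsRNA library, a log2 ratio of -1.70 (3.24-fold lower). Both were lowest in the control and highest with Rel dsRNA.

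The FPKM gap was carried by few genes. Summed over the 165 genes, 45143 more FPKM were present with IκB dsRNA, and the 10 genes with the largest gaps held 55.2% of it. Those 10 include a pair of genes with identical values, each with a gap of 1149 FPKM. Summed over the 188 genes, 63600 more FPKM were present with Rel dsRNA, 42.5% of it in the 10 largest. The median gap of a single gene was 83.3 FPKM in the first group and 108 FPKM in the second. Beyond the named genes, the next 8 in the IκB direction had gaps of 851 to 3537 FPKM, and the next 8 in the Rel direction gaps of 1194 to 4747 FPKM.

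As a share of each library, the genes higher with IκB dsRNA held 6.04% of all FPKM with IκB dsRNA, 2.27% with Rel dsRNA and 4.42% in the GFP dsRNA library. The genes higher with Rel dsRNA held 2.07%, 8.64% and 2.73% in the same order. The 1606 abundant genes under 2-fold apart held 79.4%, 74.7% and 77.2%. The genes 2-fold apart together were lower by 18456 FPKM with IκB dsRNA than with Rel dsRNA, while the other abundant genes were higher by 142675 FPKM. The larger FPKM sum of the IκB dsRNA library was therefore in genes less than 2-fold apart.

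Few of the genes with the highest means were 2-fold apart. A gene far apart has a mean well below its higher value, so this ranking places it lower. Ranked by mean over the knockdown libraries, 1 of the 20 most abundant genes, 3 of the first 50 and 8 of the first 100 were 2-fold apart, and the median log2 ratio of those 100 was 0.40. By level in the higher library, the share that lay 2-fold apart was 15.5% at 50 to below 100 FPKM, 18.7% at 100 to below 200, 21.8% at 200 to below 500, 24.4% at 500 to below 1000 and 16.9% at 1000 FPKM or more. Over all levels the TPM scale gave 113 genes toward IκB and 233 toward Rel dsRNA, and directions by level were counted as deposited only. Below 200 FPKM they were even, with 65 and 63 genes and then 47 and 45 genes higher with IκB and with Rel dsRNA. From 200 to below 500 FPKM there were 27 and 42 genes, from 500 to below 1000 there were 14 and 17, and at 1000 FPKM or more there were 12 and 21. All genes at 1000 FPKM or more, on the other hand, had a median log2 ratio of 0.35, toward IκB dsRNA.

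**Figure D2:**
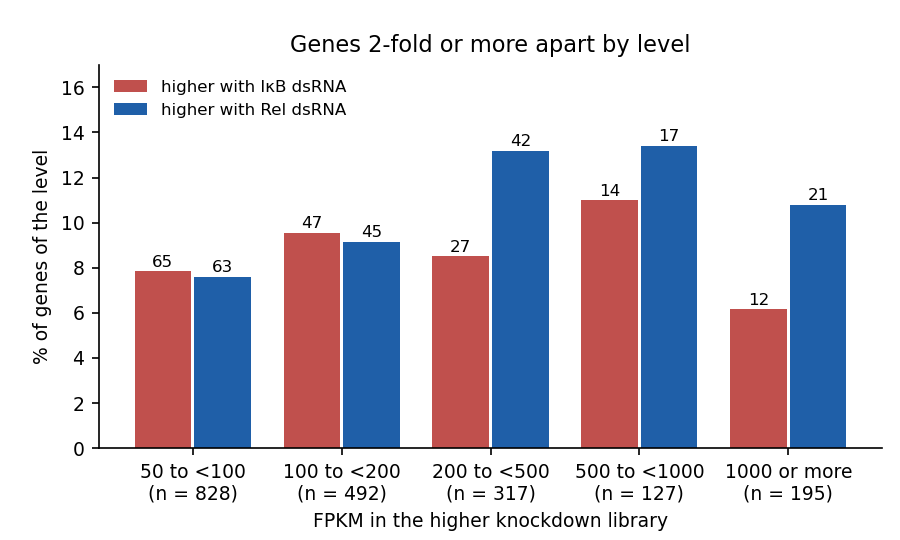
Share of genes (vertical, percent) that were 2-fold or more higher with IκB dsRNA or with Rel dsRNA, by FPKM in the higher of these libraries (horizontal), with 1 library a side. The number over a bar counts its genes and n counts all genes of the level. On the deposited scale the bars are alike below 200 FPKM, and those for Rel dsRNA are the taller from 200 FPKM up.

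The GFP dsRNA values were not used to choose the genes, but the floor of 50 FPKM in a knockdown library favours genes that are lower in the control. Of the 353 genes, 203 (57.5%) were lower with GFP dsRNA than with either knockdown, 82 (23.2%) lay between, and 68 (19.3%) were higher than with either. Of the 1606 abundant genes under 2-fold apart, 715 (44.5%) were lower than both, 246 (15.3%) between and 645 (40.2%) higher than both. A narrower gap leaves less room to lie between. A control value equal to a knockdown value was counted as between. A gene listed at 0 in a knockdown library could therefore never be below both. Of the 1682 and 1922 tested genes 2-fold apart toward IκB and Rel dsRNA, 1273 and 1569 were above 0 in both knockdown libraries. Of the 165 and 188 abundant ones, 163 and 185 were. Among the genes 2-fold apart that stayed under 50 FPKM, the control was most often in the middle: of the 1517 higher with IκB dsRNA it was below both for 25.8%, between for 50.2% and above both for 24%, and of the 1734 higher with Rel dsRNA these shares were 30.2%, 49.6% and 20.2%. On the TPM scale 59.0% of the genes 2-fold apart and 50.4% of the other abundant genes were lowest with GFP dsRNA. All of these shares rest on the same single control library and were not tested.

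By direction the counts were as follows. Of the genes higher with Rel dsRNA, 117 of 188 (62.2%) were lowest with GFP dsRNA and 24 (12.8%) were highest with it. Of the genes higher with IκB dsRNA, 86 of 165 (52.1%) were lowest and 44 (26.7%) highest. On the TPM scale the shares that were lowest came to 59.2% and 58.4%, so the gap between the directions in that share depended on the scale. The shares that were highest with GFP dsRNA were 12% and 22.1% on that scale.

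Since a gene had to reach 50 FPKM in a knockdown library and no such floor was set for the control, genes high only in the control were left out, and the counts that follow lean toward a low control by construction. For 113 of the 353 genes (32%) the GFP dsRNA value was at least 4-fold below the lower knockdown value, against 205 of 1606 (12.8%) among the other abundant genes. It was at least 4-fold above the higher knockdown value for 10 (2.83%) and 49 (3.05%). Under 1 FPKM in the control were 27 of the 353 genes (7.65%) and 3 of the 1606 (0.187%), and 20 of the 353 were listed at 0 there. The 117 genes that were lowest with GFP dsRNA and highest with Rel dsRNA had medians of 174 FPKM with Rel dsRNA, 43.0 FPKM with IκB dsRNA and 6.98 FPKM with GFP dsRNA. The 86 that were highest with IκB dsRNA and lowest with GFP dsRNA had medians of 158 FPKM with IκB dsRNA, 51.6 FPKM with Rel dsRNA and 12.7 FPKM in the GFP dsRNA library. For these 203 genes both knockdown libraries stood above the control, at different heights.

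**Figure D3:**
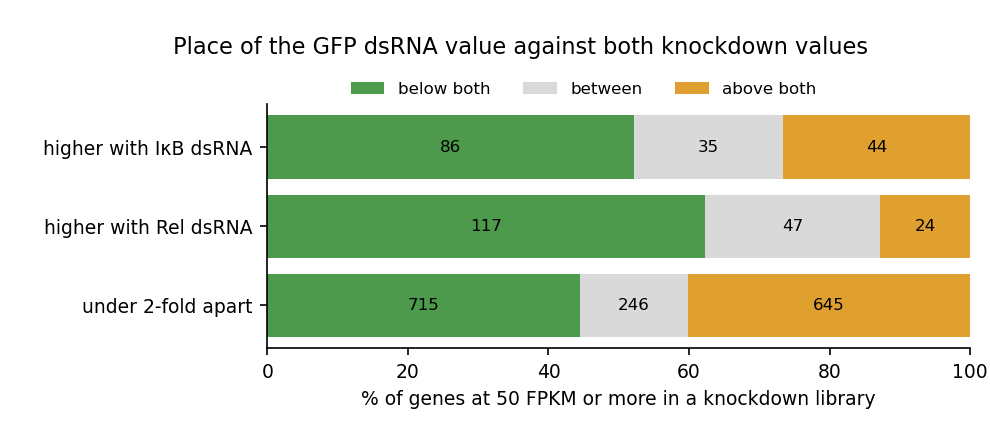
Share of genes (horizontal, percent) whose GFP dsRNA value was below both knockdown values, between them or above both, for abundant genes higher with IκB dsRNA, higher with Rel dsRNA, or under 2-fold apart, with 1 library per dsRNA. Numbers in the bars count genes. The control lay below both for 86, 117 and 715 genes, the widest part of each bar.

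A smaller set had its highest level in the control. Among the genes higher with IκB dsRNA, 9 reached 1000 FPKM with GFP dsRNA, and 7 of these were above both knockdowns. The highest of them stood at 13966 FPKM with GFP dsRNA, 1513 FPKM with IκB dsRNA and 577 FPKM with Rel dsRNA. Among the genes higher with Rel dsRNA, 4 reached 1000 FPKM with GFP dsRNA and all 4 were above both knockdowns. The highest stood at 9722 FPKM with GFP dsRNA, 1388 FPKM with IκB dsRNA and 3148 FPKM with Rel dsRNA. These 11 abundant control transcripts were thus lower in both knockdown libraries, by unequal amounts. Among the 7, a pair of genes held identical values, with 2985 FPKM with GFP dsRNA.

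The largest differences were read against the control in the same way, with genes listed at 0 counted on the FPKM + 1 scale. Of the 18 genes at least 16-fold higher with Rel dsRNA, 13 were lowest with GFP dsRNA. Another, listed at 0 with both GFP and IκB dsRNA, was counted as between. The median GFP dsRNA level of the 18 genes was 2.84 FPKM. Their levels with Rel dsRNA ran from 56.2 to 1388 FPKM, with a median of 280 FPKM, and with IκB dsRNA from 0 to 78.4 FPKM, with a median of 4.20 FPKM. Of the 9 genes at least 16-fold higher with IκB dsRNA, 3 were lowest with GFP dsRNA, 4 lay between and 2 were above both. Their levels ran from 50.5 to 2988 FPKM with IκB dsRNA and from 0 to 14.4 FPKM with Rel dsRNA.

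A few genes were listed at 0 in a knockdown library, and no fold is given for these. With Rel dsRNA 2 were listed at 0, and they stood at 501 and 50.5 FPKM with IκB dsRNA and at 1530 and 15.6 FPKM with GFP dsRNA. With IκB dsRNA 3 were listed at 0, and they stood at 455, 290.4 and 87.3 FPKM with Rel dsRNA. The first of these 3 was also listed at 0 with GFP dsRNA, where the others stood at 1435 and 386.7 FPKM.

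Values near the limits were close to those beyond them. The gene just inside 2-fold toward IκB dsRNA stood at 136 and 67.4 FPKM with IκB and Rel dsRNA, and the one just outside at 51.0 and 25.1 FPKM. Toward Rel dsRNA these pairs were 45.2 and 92 FPKM inside and 39.7 and 79.8 FPKM outside. At the level limit, the higher values just inside and just outside were 50.1 and 49.5 FPKM toward IκB dsRNA and 50.5 and 49.9 FPKM toward Rel dsRNA. Of the 353 genes, 73 were less than 2.2-fold apart and 47 stayed below 60 FPKM.

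Genes of the 2 identifier classes of the table were both represented. Of the abundant genes with pfu_aug2.0 identifiers, 145 of 929 (15.6%) lay 2-fold apart, 64 higher with IκB dsRNA and 81 higher with Rel dsRNA. Of those with BGI_novel identifiers there were 208 of 1030 (20.2%), 101 and 107 by direction. The median size of the log2 ratio was 1.49 in the second class and almost the same in the first. In 8 sets, 18 of the 353 genes had the same 3 values as another of them, and in 1 set an identifier of each class held the same values. Counting each set once left 343 genes, 159 and 184 by direction.

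Genes with neighbouring identifier numbers tended to lie apart together. Among pairs of abundant genes with consecutive numbers (and, for pfu_aug2.0, the same scaffold field in the identifier), 44 pairs had both genes 2-fold apart, 69 had 1 and 181 had none. Beside a gene that was 2-fold apart, the neighbour was too in 56.1% of cases, against 16% beside a gene that was not. Within 3 numbers these shares were 48.3% and 19.3%, and within 10 numbers 37.2% and 19.7%. With genes of identical values counted once they were 49.6% and 17.9% for consecutive numbers. Of the 44 pairs, 31 (70.5%) had the same direction, 20 of them toward Rel dsRNA and 11 toward IκB dsRNA, and 13 had opposite directions. Among the other pairs of abundant genes with consecutive numbers, the log2 ratios had the same sign in 62.8%. With identical values counted once, 22 of 33 pairs (66.7%) had the same direction, 16 toward Rel dsRNA and 6 toward IκB dsRNA. The other pairs then had the same sign in 58.4%. Whether BGI_novel numbers follow the genome is not given in the sources used here, and no test of this pattern was made.

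Genes that were 2-fold apart formed 9 runs of 3 or more consecutive numbers, which held 30 genes. Of these runs, 3 held genes of identical values, and 3 with distinct values had a single direction, which was toward Rel dsRNA in each. The first of these 3 stood at 16.8, 62.5 and 30.2 FPKM with IκB dsRNA, at 1036, 699 and 695 FPKM with Rel dsRNA, and at 2.25, 2.08 and 24.7 FPKM with GFP dsRNA. All 3 of its genes were far higher with Rel dsRNA than in the other libraries. The second stood at 1065, 240 and 452 FPKM with IκB dsRNA, at 2237, 2925 and 1247 FPKM with Rel dsRNA, and at 170.3, 8.30 and 6.98 FPKM with GFP dsRNA. The third holds the named genes BGI_novel_G010324 and BGI_novel_G010325, and its last gene stood at 2522 FPKM with IκB dsRNA, 7269 FPKM with Rel dsRNA and 135 FPKM in the GFP dsRNA library. In every gene of these 3 runs the order was GFP, then IκB, then Rel dsRNA.

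A run of 4 pfu_aug2.0 genes on 1 scaffold field mixed the directions. Its first 3 genes stood at 40.1, 78.4 and 33.8 FPKM with IκB dsRNA and at 394, 1388 and 164 FPKM with Rel dsRNA. In the GFP dsRNA library the middle gene stood at 4.47 FPKM and the others were listed at 0. The fourth stood at 124 FPKM with IκB dsRNA, 41.3 FPKM with Rel dsRNA and 369 FPKM in the GFP dsRNA library, the reverse order. Its 3 values are those of the BGI_novel gene in the set with both classes. In all, 9 scaffold fields held 2 or more of the genes, and in 6 of them the direction was the same.

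The densest stretch of BGI_novel numbers, picked out after its values were seen, held 7 of the genes among 8 consecutive identifiers, 4 higher with IκB dsRNA and 3 higher with Rel dsRNA. In order, the 8 genes stood at 0, 659, 2988, 76.9, 40.3, 144, 69.2 and 483 FPKM with IκB dsRNA. With Rel dsRNA they stood at 290.4, 1853, 14.4, 36.5, 17.7, 1.18, 1384 and 206 FPKM. With GFP dsRNA they stood at 1435, 79.6, 4.09, 4.91, 0, 1.55, 28.2 and 15.1 FPKM. Each library thus had a different leading gene: the third with IκB dsRNA, the second with Rel dsRNA and the first with GFP dsRNA. The sums over the stretch were much closer, at 4460 FPKM with IκB dsRNA and 3803 FPKM with Rel dsRNA (a log2 ratio of 0.23), with 1568 FPKM with GFP dsRNA. The file does not tell whether reads were split between near-identical copies here, so the single values are uncertain, and this was not tested.

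**Figure D4:**
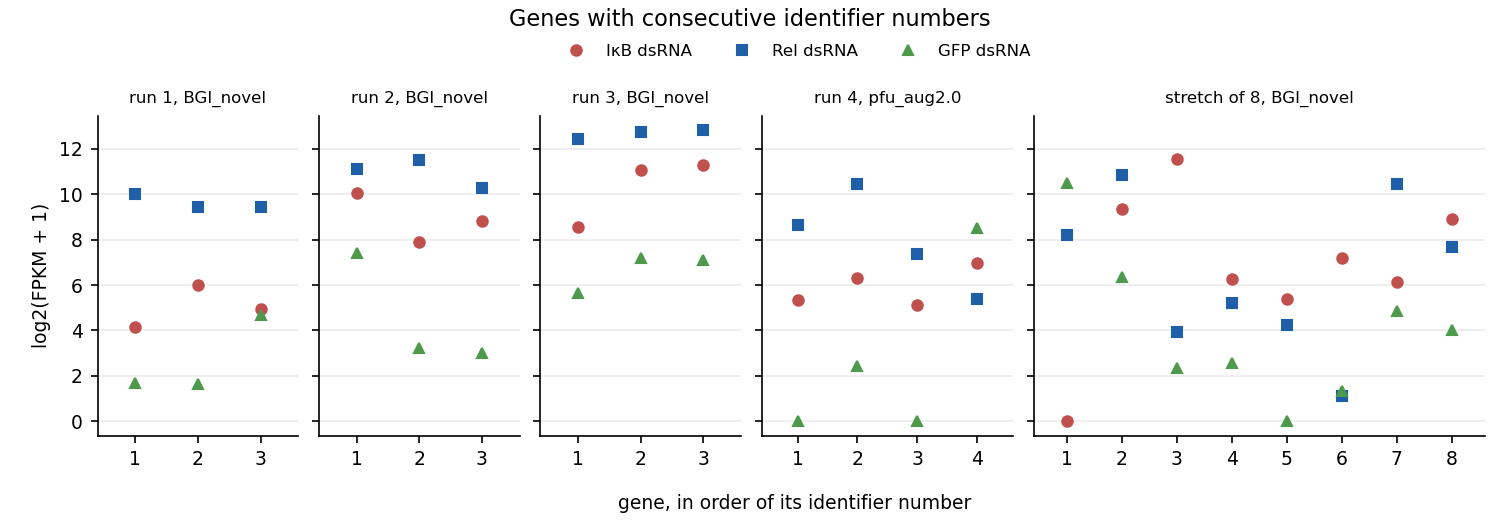
Level as log2(FPKM + 1) (vertical) of genes with consecutive identifier numbers (horizontal, in order of number) in the IκB, Rel and GFP dsRNA libraries, 1 point per library. Runs 1 to 3 and the first 3 genes of run 4 are highest with Rel dsRNA, while in the stretch of 8 the first gene is highest with GFP dsRNA, the second and seventh with Rel dsRNA, and the others with IκB dsRNA.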

How the data were processed

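The authors deposited 1 table of FPKM values with 2 decimals at most, 3 columns (IκB, Rel and GFP dsRNA) and no gene names. HISAT, Bowtie2 and RSEM are named, without roles, in the submitters' processing notes. The genome build is not given in the sources used here, nor is the annotation. Poly(A) capture and rRNA depletion both appear in the labels' protocols, and which one was used is not said. Columns were matched to samples by name, and every value column was used.

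Ratios are log2(FPKM + 1), IκB minus Rel; the pseudocount understates differences of low genes. Count models were not used, since FPKM are not counts. No test was possible with 1 library per group. Relative depth was read from values of 0.3 to below 3 FPKM, as the most frequent ratio between libraries. The counting and the depth estimate were checked on simulated data. Python 3.11.15, pandas 2.3.3 and numpy 2.4.6 were used.

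The genes, limits and lists were chosen with earlier results of these data known. Named genes are the 2 per direction with the largest FPKM difference. Planned lists of pathway, shell matrix and cell type genes could not be applied without gene names. Alternatives covered the pseudocount, scaling, fold, level, filter, values of 0, identical values and neighbour distance.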

Additional observations from a re-analysis of the deposited data

How the results depend on the processing

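No value has a replicate error, so no replicate could be left out, and a count or share was taken as moved when it changed by over 1.5 times. Of the alternative values, 79 did not move, 14 moved and 0 changed sign. Some could not move: every gene at 50 FPKM passes the mean filters, so these left the abundant counts at 165 and 188. Only the log2 ratios of the named genes could change sign, and at their levels the pseudocount hardly matters. The count of 165 fell to 113 on the TPM scale, which stayed within 1.5 times. The median log2 ratio of the abundant genes was not among these values. It changed sign, from 0.08 to -0.11 on the TPM scale. A 3-fold threshold left 60 abundant genes higher with IκB dsRNA and 97 higher with Rel dsRNA, and 811 and 825 of all tested genes. A level of 25 FPKM gave 269 and 328 abundant genes, and 100 FPKM gave 100 and 125. Among all tested genes a pseudocount of 5 gave 553 and 583, and a mean of at least 5 FPKM gave 666 and 803. Pairs of neighbouring genes that were both 2-fold apart numbered 78 within 3 identifier numbers, 50 of them in the same direction, and 44 and 31 within 1 number. Counting identical values once there, an alternative added after the data were seen, gave 60 and 38. On the TPM scale 32.7% of the abundant genes 2-fold apart were higher with IκB dsRNA, against 46.7% as deposited, and 301 of the 353 genes were shared. The named genes kept their direction under each scaling and pseudocount, and BGI_novel_G005012 was nearest to the threshold, with a log2 ratio of 1.04 on the TPM scale. No paired analysis was possible because each group is 1 library. Without read numbers, a value of 0 does not show that a transcript was absent.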
